A study of Sus scrofa with 36 samples.

Results

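Spliceosomal small nuclear RNAs (snRNAs) and the RNA of the signal recognition particle (SRP) were examined in neonatal pig hearts at 4 ages. The rows were taken from the gene count table by their annotated biotype, snRNA or misc_RNA, and a row was kept when 3 or more of the 12 libraries had 10 or more counts on it. Of 9815 gene rows, 358 carried these biotypes (349 snRNA and 9 misc_RNA), and 36 of them passed. All 9 misc_RNA rows are named Metazoa_SRP. The libraries came from batch cd, in which total RNA from the hearts of 12 pigs was sequenced by CD Genomics, with 3 pigs at each of postnatal days 1, 3, 7 and 28 (P1, P3, P7 and P28). The animals were Yorkshire pigs of both sexes, fed normally and otherwise untreated, and the tissue is labelled heart without a chamber. All comparisons use these 12 libraries, which are called replicates 4, 5 and 6 of each age after the column names.

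The spliceosome removes introns from messenger RNA precursors. Its U1 RNA pairs with the start of the intron, U2 with the branch point, and U4, U5 and U6 join as a particle from which the catalytic center forms. The SRP is a complex of RNA and protein that binds signal peptides as they leave the ribosome and brings the ribosome to the translocon of the endoplasmic reticulum, the entry route for secreted and membrane proteins such as the natriuretic peptides and ion channels of the heart. Mammalian genomes hold many dispersed copies of these genes, most of them pseudogenes, so that a row of the table is 1 annotated copy and reads from near-identical copies may be divided between rows. Values of single SRP, U2 and U6 rows are uncertain for this reason.

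The gene table covers chromosomes 1, 2, 6 and 13 and ends within chromosome 2, and each share given here is a share of the counts in these rows, not of a whole library. Counts per library ranged from 8887176 to 14883849. Levels are TMM-normalized CPM, computed over these counts alone, with factors from 0.900 to 1.14. The marker sums that follow are instead CPM of the total counts per library, without these factors. Of 10 cardiomyocyte markers, 6 were in the table and none was at 0. They summed to 64260 to 67841 CPM at P1 and 79279 to 84349 CPM at P28, without overlap (2 of 6 called higher). Marker calls use the study's thresholds, given further on. By these, 11% of all genes tested were higher at P28 and 12.1% were lower. Of 8 markers for each type, the table held 5 for leukocytes, 3 for fibroblasts and 3 for endothelial cells. The leukocyte markers summed to 325 to 473 CPM at P1 and 539 to 839 CPM at P28 (5 of 5 called higher). The fibroblast markers summed to 3912 to 4781 CPM at P1 and 1281 to 1602 CPM at P28 (2 of 3 called lower). The endothelial markers overlapped between these ages, at 565 to 581 and 552 to 632 CPM, although 1 of 3 was called higher. The erythroid marker TAL1 was called higher at P28 (31.2 to 37.8 against 43.7 to 60.3 CPM). ACTN3 of skeletal muscle did not exceed 1.44 CPM in any library. The part of these cell types in the values of the snRNA and SRP rows was not tested. In bulk tissue, fewer cells of a type and less RNA per cell cannot be told apart.

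The rows that passed were divided unevenly among the named RNAs. Of the 272 U6 rows, 19 passed, against 5 of 41 U2 rows, 2 of 16 U1 rows, 2 of 9 U5 rows, 6 of 9 Metazoa_SRP rows and 2 of 7 snRNA rows without a name. None of the 3 U4 rows passed and all 3 were at 0, and the 1 row of U7, the RNA of histone mRNA processing, had 25 counts in all 12 libraries together. Among the 322 rows that did not pass, 199 had no count in any library and the other 123 held 1524 counts, against 19668077 counts on the 36 that passed. No row passed through libraries of 1 age alone, and 27 rows had a library with at least 10 counts at each of the 4 ages. Just inside the filter were U5 ENSSSCG00000018672 (third-highest count 10), U6 ENSSSCG00000018590 (11) and U6 ENSSSCG00000020088 (11). U2 ENSSSCG00000047007 (9), U6 ENSSSCG00000041433 (7) and U2 ENSSSCG00000044634 (7) were just outside it.

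Nearly all counts lay on 5 rows. The 4 abundant Metazoa_SRP rows held 97.3% to 99.1% of the counts of the 36 rows in each library, U2 ENSSSCG00000027405 held 0.898% to 2.64%, and the remaining 31 rows together held 0.0188% to 0.0722%, which was 273 to 759 counts. The most abundant row, SRP ENSSSCG00000031740, lies at chr1:179686395-179686694 and averaged 814128 counts. SRP ENSSSCG00000032708 (chr1:179671803-179672102) averaged 625389 counts, SRP ENSSSCG00000034995 (chr1:179456985-179457284) 165936 and SRP ENSSSCG00000021003 (chr1:218682885-218683164) 10588. The U2 row lies at chr2:8928980-8929170 and averaged 22404 counts. On the scale of CPM per kilobase of row length, the mean levels over the 12 libraries were 226872, 174063 and 46769 for the first 3 SRP rows, 9755 for the U2 row and 3195 for SRP ENSSSCG00000021003, and between 2.51 and 39.7 for the 31 other rows. Positions are those of the table, whose genes lie at Sscrofa11.1 positions.

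The share of gene counts on the 36 rows was lower at P28 than at P1 or P3 in every library. It was 19.7%, 14.3% and 13.1% in P1 replicates 4, 5 and 6 (15.7% ± 3.52, SD, n = 3), and 13.8%, 16.4% and 14.0% at P3 (14.7% ± 1.42, SD, n = 3). At P7 it was 12.4%, 7.21% and 19.9% (13.2% ± 6.39, SD, n = 3), and at P28 8.10%, 12.2% and 11.6% (10.6% ± 2.23, SD, n = 3). The 3 P28 libraries were below all P1 and P3 libraries, whereas P7 spanned the whole range, from the lowest library to the highest. The 95% Wilson interval of a share reached at most 0.0243 percentage points to either side and covers counting error only. With 1 library per pig, differences between pigs and between library preparations cannot be told apart. No p-value is given for a sum over rows. Without P1 replicate 4, the P1 mean was 13.7% ± 0.864 (SD, n = 2), still above each P28 library, and without P7 replicate 6 the P7 mean was 9.81% ± 3.68 (SD, n = 2).

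The snRNA rows did not share this order. The 30 snRNA rows, in effect the abundant U2 row, took 0.184%, 0.190% and 0.227% of gene counts in P1 replicates 4, 5 and 6 and 0.180%, 0.150% and 0.185% at P3. Their shares were 0.162%, 0.124% and 0.214% at P7 and 0.219%, 0.228% and 0.212% at P28. The P28 mean, 0.220% ± 0.00816 (SD, n = 3), stood beside 0.200% ± 0.0232 at P1 (SD, n = 3), and these ages overlapped. All P28 libraries were above all P3 libraries, the opposite order to that of the 36 rows together. The Wilson interval reached at most 0.00283 percentage points to either side. The Metazoa_SRP rows took 12.9% to 19.5% at P1, 13.6% to 16.2% at P3, 7.09% to 19.7% at P7 and 7.88% to 12.0% at P28.

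In P1 replicate 4 and P7 replicate 6 the SRP rows stood in other proportions than in the remaining 10 libraries. In these libraries ENSSSCG00000032708 had 85.6% and 86.8% of the count of ENSSSCG00000031740, against 65.5% to 80.9% elsewhere. ENSSSCG00000034995 had 13.3% and 12.0%, against 21.3% to 26.2%, and ENSSSCG00000021003 had 0.993% and 0.820%, against 1.01% to 1.96%. They are also the libraries with the highest SRP shares, 19.5% and 19.7%. The counts of ENSSSCG00000035200, an ssc-mir-1285 row that overlaps the start of ENSSSCG00000031740, were 41320 and 34991 there, against 74135 to 192488 in the other 10. A second ssc-mir-1285 row, ENSSSCG00000038379, which overlaps ENSSSCG00000034995, did not separate them, with 19251 and 14564 counts there and 16110 to 47424 in the other 10. Results that rest on the abundant SRP rows are therefore given with and without these libraries. What sets them apart was not tested.

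**Figure D1:**
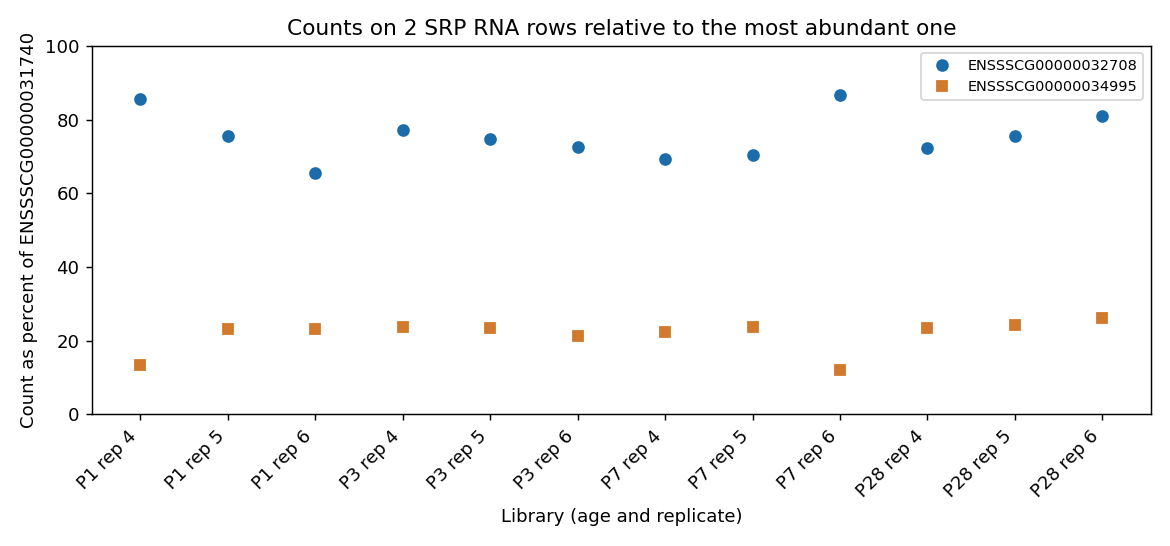
Counts on SRP RNA rows ENSSSCG00000032708 (circles) and ENSSSCG00000034995 (squares) as a percent of the count on ENSSSCG00000031740 (y axis), in each of the 12 libraries (x axis). P1 replicate 4 and P7 replicate 6 have the 2 highest circles, at 85.6% and 86.8%, and the 2 lowest squares, at 13.3% and 12.0%.

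None of the 5 abundant rows met the thresholds of the study in any comparison (a p not above 0.05 without adjustment, together with a log2 fold change beyond 0.5 in either direction, here from edgeR's quasi-likelihood test). A log2 fold change is the later age minus P1, and adjusted p-values are Benjamini-Hochberg values over the 5526 genes tested. ENSSSCG00000031740 had 108493, 70352 and 67213 CPM in P1 replicates 4, 5 and 6, 64531, 85287 and 71286 CPM at P3, 59739, 31773 and 99725 CPM at P7, and 41597, 62285 and 54459 CPM at P28. All P28 libraries were below all P1 libraries, and P3 and P7 overlapped P1. The log2 fold change was -0.64 at P28 (SE 0.33, edgeR adjusted p = 0.215), -0.15 at P3 and -0.36 at P7. Without P1 replicate 4 and P7 replicate 6 the P28 value was -0.37 (SE 0.26, edgeR adjusted p = 0.389), the P7 value was -0.57 (SE 0.28, adjusted p = 0.475), and the P3 value turned to 0.11 (SE 0.26, adjusted p = 0.886).

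ENSSSCG00000032708 was at 92860, 53170 and 44027 CPM in the P1 libraries and at 49724, 63663 and 51720 CPM at P3. At P7 it was at 41457, 22323 and 86567 CPM, and at P28 at 30063, 46985 and 44071 CPM. P1 and P28 overlapped here, and the P28 log2 fold change of -0.65 (SE 0.40, edgeR adjusted p = 0.296) became -0.25 (SE 0.27, adjusted p = 0.584) without the 2 libraries that stand apart. Its values of -0.20 at P3 and -0.34 at P7 became 0.19 (SE 0.27, edgeR adjusted p = 0.801) and -0.59 (SE 0.29, adjusted p = 0.476), so that for both rows the sign at P3 depended on these libraries.

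ENSSSCG00000034995 had 14396, 16228 and 15514 CPM at P1 and 15300, 19985 and 15196 CPM at P3. Its P7 libraries, at 13257, 7503 and 11959 CPM, were all below those of P1, and at P28 it had 9742, 15035 and 14253 CPM. The P7 log2 fold change was -0.50 (SE 0.22, edgeR adjusted p = 0.286), which passed the unadjusted p but, before rounding, fell short of the fold threshold. Without the 2 libraries it was -0.60 (SE 0.28, edgeR adjusted p = 0.435) and passed the fold threshold only. At P28 the value was -0.24 (SE 0.22, edgeR adjusted p = 0.488), and -0.27 without the 2 libraries, and at P3 it was 0.13 and 0.10. ENSSSCG00000021003 had 678 to 1079 CPM at P1, 921 to 1207 CPM at P3, 437 to 836 CPM at P7 and 692 to 1067 CPM at P28. P1 overlapped every later age, whereas P3 lay wholly above P7. Its log2 fold changes were 0.13 at P3, -0.44 at P7 and -0.07 at P28, with an edgeR adjusted p of at least 0.449 in each. Without the 2 libraries these became 0.25, -0.45 and 0.05, so that the sign at P28 turned, with an edgeR adjusted p of at least 0.675 in each.

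The abundant U2 row had 2000, 1851 and 2204 CPM at P1 and 1679, 1543 and 1820 CPM at P3, so that every P3 library was below every P1 library. It had 1487, 1039 and 2118 CPM at P7 and 2224, 2337 and 2060 CPM at P28. The log2 fold changes were -0.26 at P3 (SE 0.20, edgeR adjusted p = 0.520), -0.38 at P7 (SE 0.20, adjusted p = 0.385) and 0.13 at P28 (SE 0.20, adjusted p = 0.706). Without P1 replicate 4 and P7 replicate 6, which had the highest P7 value, the P7 difference was -0.67 (SE 0.19, edgeR adjusted p = 0.197) and met the study's thresholds but not the adjusted one. This U2 row begins at the same base as WDR74, a protein coding gene that extends to 8937611, and its count was 97.9% to 98.8% of the WDR74 count in every library. Whether both rows count the same reads was not tested, and they are not read here as separate measurements.

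**Figure D2:**
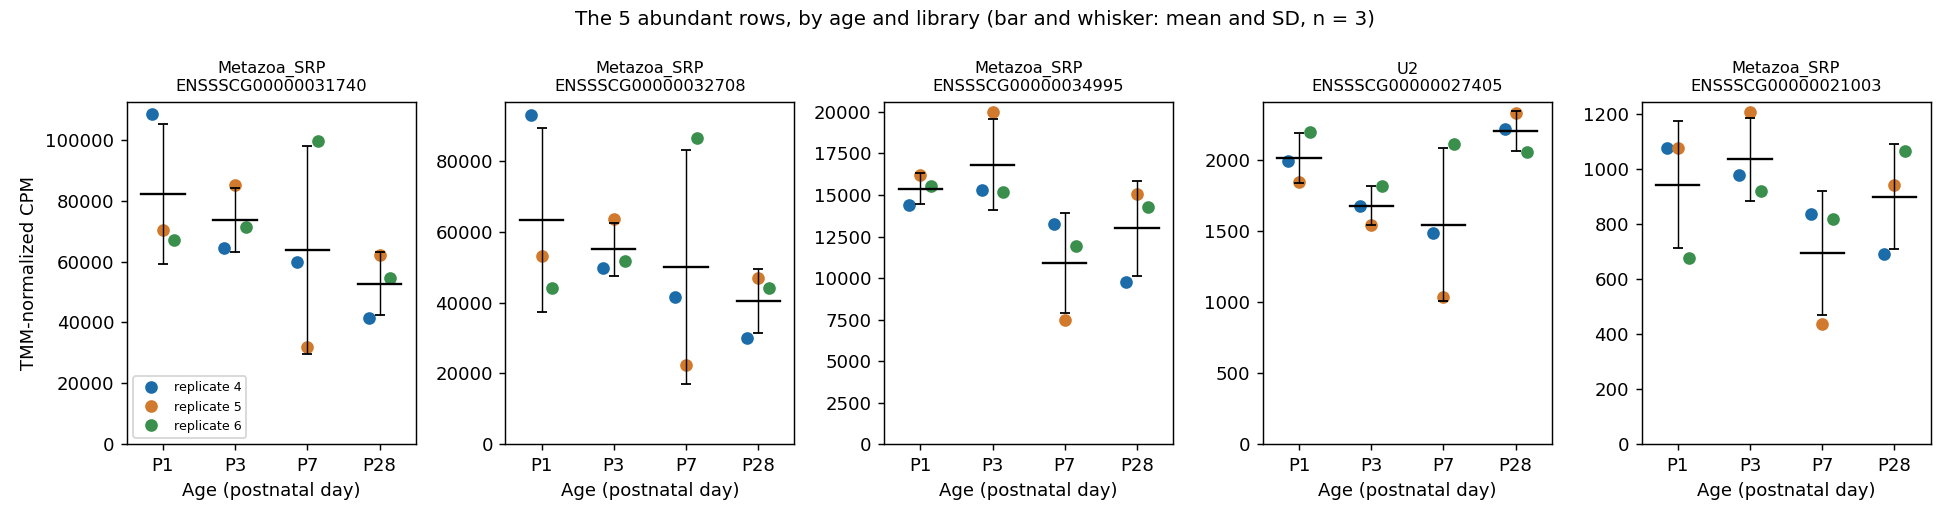
TMM-normalized CPM (y axis, from 0, with its own scale in each panel) of the 5 abundant rows by age (x axis). Points are libraries, colored by replicate number, and the bar and whiskers are the mean and SD of 3 pigs. For ENSSSCG00000031740 all P28 points lie below all P1 points, whereas P7 runs from 31773 to 99725 CPM.

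Over all 36 rows, few differences from P1 met the thresholds. Between P1 and P3, 1 row was called, 2.78% of the 36 against 10.6% of all genes tested. It was lower at P3, as were 3.64% of all genes. Between P1 and P7, edgeR called 0 rows, against 11.7% of all genes. One row, SRP ENSSSCG00000034995, passed the unadjusted p threshold in that comparison, and DESeq2 also called 0. Between P1 and P28, 6 rows were called, 4 higher and 2 lower at P28, or 16.7% against 23.1% of all genes (11% higher and 12.1% lower). In P1 versus P3, P7 and P28, which sets P1 against the average of the later ages, 1 row was called, against 9.41% of all genes, and it was lower, as were 4.52% of all genes. With all libraries, the shares of called rows were thus below those of all genes in each comparison. Without P3 replicate 4, 4 of the 36 rows were called at P3, against 807 of all 5526 genes in that fit (14.6%). Without P7 replicate 6, 4 of the 36 rows were called at P7, against 612 of 5526 genes, which is about the same share. For the later ages together, 3 rows (8.33%) were called without P3 replicate 5, against 9.46% of all genes, or without P7 replicate 6, against 9.52%. Of the 36 rows, 31 had at most 91 counts in any library. The common dispersion of all genes, which is the square of the relative spread between pigs, was 0.0446, and the median SE of the log2 fold change over the 36 rows was 0.44 in P1 versus P28.

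At an adjusted p under 0.05, the counts were 0 at P3 (background 0.0543%, with 1 row past the unadjusted p threshold), 0 at P7 (background 2.01%), 2 at P28 (1 higher and 1 lower, background 15.3%, of which 7.38% higher and 7.93% lower) and 0 for the later ages together (background 2.46%, with 1 row past the unadjusted p threshold). DESeq2 gave 0, 0, 2 and 1, with 2.21%, 6.59%, 19.7% and 5.27% of all genes. The median log2 fold change of the 36 rows was -0.04, -0.08, 0.14 and -0.13 in the same order, against 0.01, -0.01, 0.00 and 0.01 over all genes. P1 and the later age did not overlap in 4, 6 and 8 of the 36 rows at P3, P7 and P28, against 16.0%, 30.6% and 44.4% of all genes, and in 1 row for the later ages together, against 3.28%. All 4 comparisons share the P1 libraries.

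**Figure D3:**
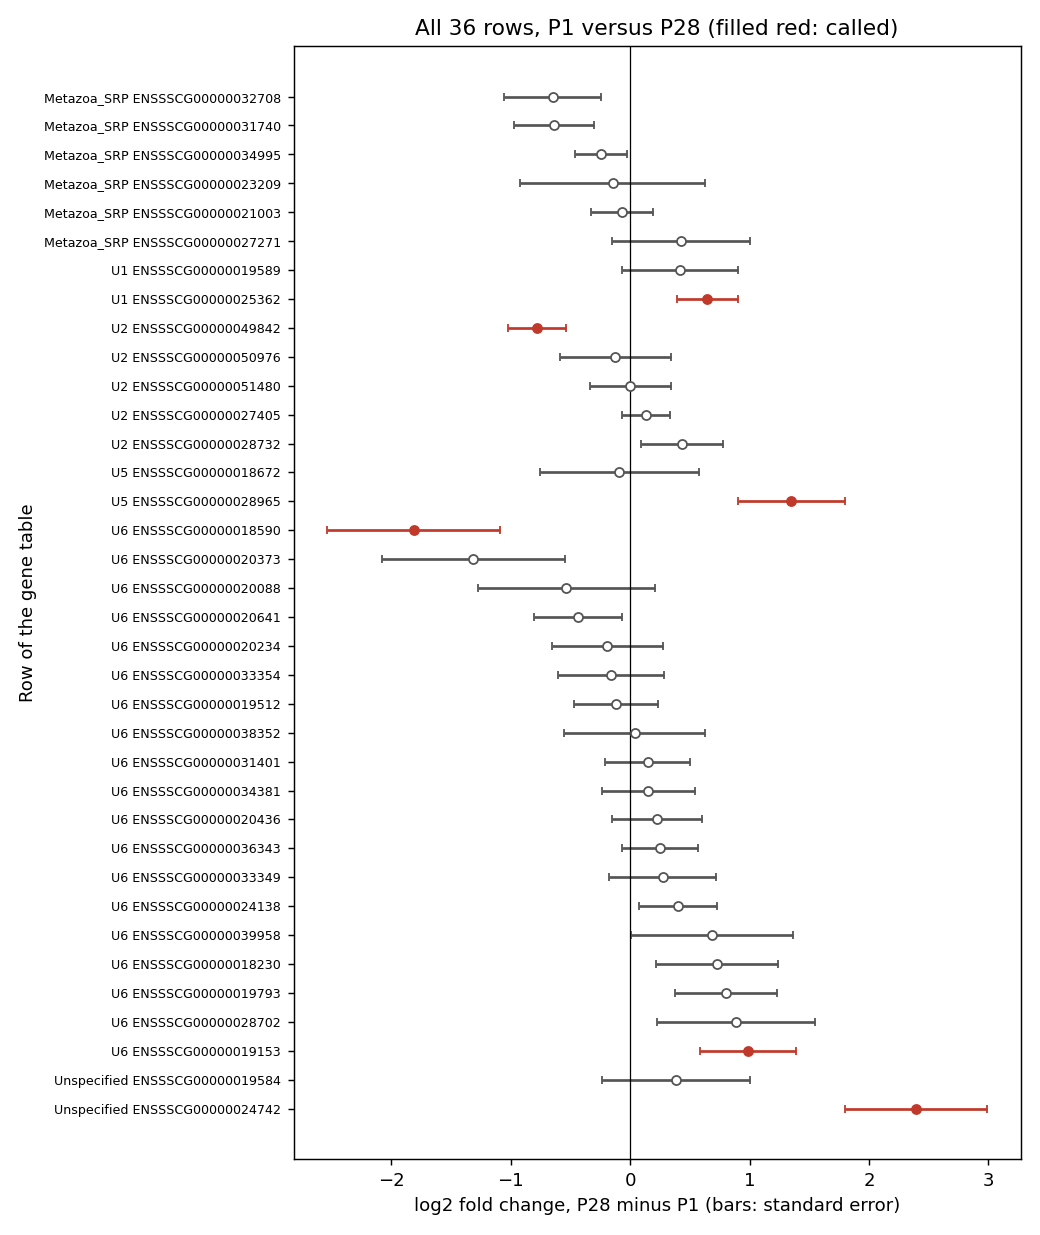
Log2 fold change between P28 and P1 (x axis, positive for higher at P28) of each of the 36 rows (y axis, grouped by RNA). Bars are standard errors calculated back from the F statistic of edgeR's quasi-likelihood test. The 6 called rows are filled red and run from -1.81 (U6 ENSSSCG00000018590) to 2.40 (unnamed snRNA ENSSSCG00000024742), and the other 30 rows are open.

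The row with the largest difference at P28 was the unnamed snRNA ENSSSCG00000024742 (chr6:85649448-85649581). It overlaps no other gene of the table and lies in LOC110261125, a long noncoding RNA of RefSeq. Its counts were 22, 2 and 6 in P1 replicates 4, 5 and 6, 12, 4 and 17 at P3, 7, 22 and 13 at P7 and 54, 54 and 34 at P28. Every P28 library was above every library of the other ages. It was 0.760 ± 0.784 CPM at P1 and 4.04 ± 0.603 CPM at P28 (SD, n = 3 each), a log2 fold change of 2.40 (SE 0.60, edgeR adjusted p = 0.0186, DESeq2 adjusted p = 0.00214). The log2 fold change ran from 1.89 without P1 replicate 5 to 3.66 without P1 replicate 4 (edgeR adjusted p = 0.00286). The edgeR adjusted p was 0.0502 without P1 replicate 5, 0.0780 without P1 replicate 6 and 0.0504 without P28 replicate 5. Against P1 it was at 0.39 in P3 (edgeR adjusted p = 0.789) and at 0.48 in P7 (adjusted p = 0.799).

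U2 ENSSSCG00000049842 (chr1:126263566-126263786) was the row called most often. It was called lower than P1 in all comparisons except P7, where it was lower but not called. It had 83, 91 and 89 counts in the P1 libraries and 39, 23 and 61 at P3. At P7 it had 57, 74 and 54 counts, and at P28 52, 43 and 40. On the CPM scale all 9 later libraries, at 2.72 to 5.12, were below the 3 P1 libraries, at 6.19 to 7.33. Log2 fold changes were -0.84 at P3 (SE 0.24, edgeR adjusted p = 0.187), -0.47 at P7 (SE 0.24, adjusted p = 0.365), -0.78 at P28 (SE 0.24, adjusted p = 0.0465) and -0.70 for the later ages together (SE 0.19, edgeR adjusted p = 0.0791, DESeq2 adjusted p = 0.0225). The row lies inside SLC30A4, a zinc transporter gene, whose own log2 fold changes were -0.65 at P3, -0.31 at P7 and -0.72 at P28 (SE 0.18, edgeR adjusted p = 0.0205 at P28). Counts per base of the row were 102% of those of SLC30A4, for which the annotated length of 5842 bases was used. The span of SLC30A4 (chr1:126237032-126268102) is longer, so this value does not compare the row with the sequence directly around it.

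U5 ENSSSCG00000028965 (chr6:71971040-71971156), the U5 row with the higher level, overlaps no gene. Its counts were 16, 8 and 11 at P1, 11, 2 and 4 at P3, 13, 10 and 11 at P7 and 26, 27 and 26 at P28, so that P28 was above all other libraries. The level was 0.892 ± 0.309 CPM at P1 and 2.29 ± 0.245 CPM at P28 (SD, n = 3 each), with a log2 fold change of 1.35 (SE 0.45, edgeR adjusted p = 0.0601). The other U5 row, ENSSSCG00000018672, had at most 11 counts in a library. Its counts were 10, 5 and 10 at P1 and 2, 1 and 3 at P3, all P3 libraries being at or under the floor of 3 counts per library. The row passed the filter only through 2 P1 libraries and 1 P7 library, so no fold between P1 and P3 is given, and the difference was not called (edgeR adjusted p = 0.333).

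The other 3 rows called at P28 passed the unadjusted threshold only. U1 ENSSSCG00000025362, inside ACAP2, had 32, 41 and 32 counts at P1 and 55, 40 and 49 at P28, a log2 fold change of 0.65 (SE 0.26, edgeR adjusted p = 0.110) with no overlap in CPM. U6 ENSSSCG00000019153, inside PTPRM, had 20, 19 and 21 counts at P1 and 49, 28 and 29 at P28, with a log2 fold change of 0.99 (SE 0.40, edgeR adjusted p = 0.115), again without overlap. U6 ENSSSCG00000018590, inside KIF1B, had 14, 11 and 4 counts at P1 and 5, 1 and 1 at P28, a log2 fold change of -1.81 (SE 0.73, edgeR adjusted p = 0.110), and here the ages overlapped. The last value ran from -2.89 without P28 replicate 4 (edgeR adjusted p = 0.0713) to -1.45 without P28 replicate 5. Each of these calls was lost when P1 replicate 4 was left out (log2 fold changes 0.57, 0.97 and -1.47, edgeR adjusted p = 0.225, 0.196 and 0.260), and other single libraries ended them as well, as described in the closing section. The 3 calls of ENSSSCG00000024742, ENSSSCG00000049842 and ENSSSCG00000028965 were kept at the unadjusted threshold in every fit that left out 1 library. The edgeR adjusted p was 0.05 or more in 3 of these 12 fits for ENSSSCG00000024742, in 9 for ENSSSCG00000049842 (up to 0.144) and in 10 for ENSSSCG00000028965 (up to 0.195).

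**Figure D4:**
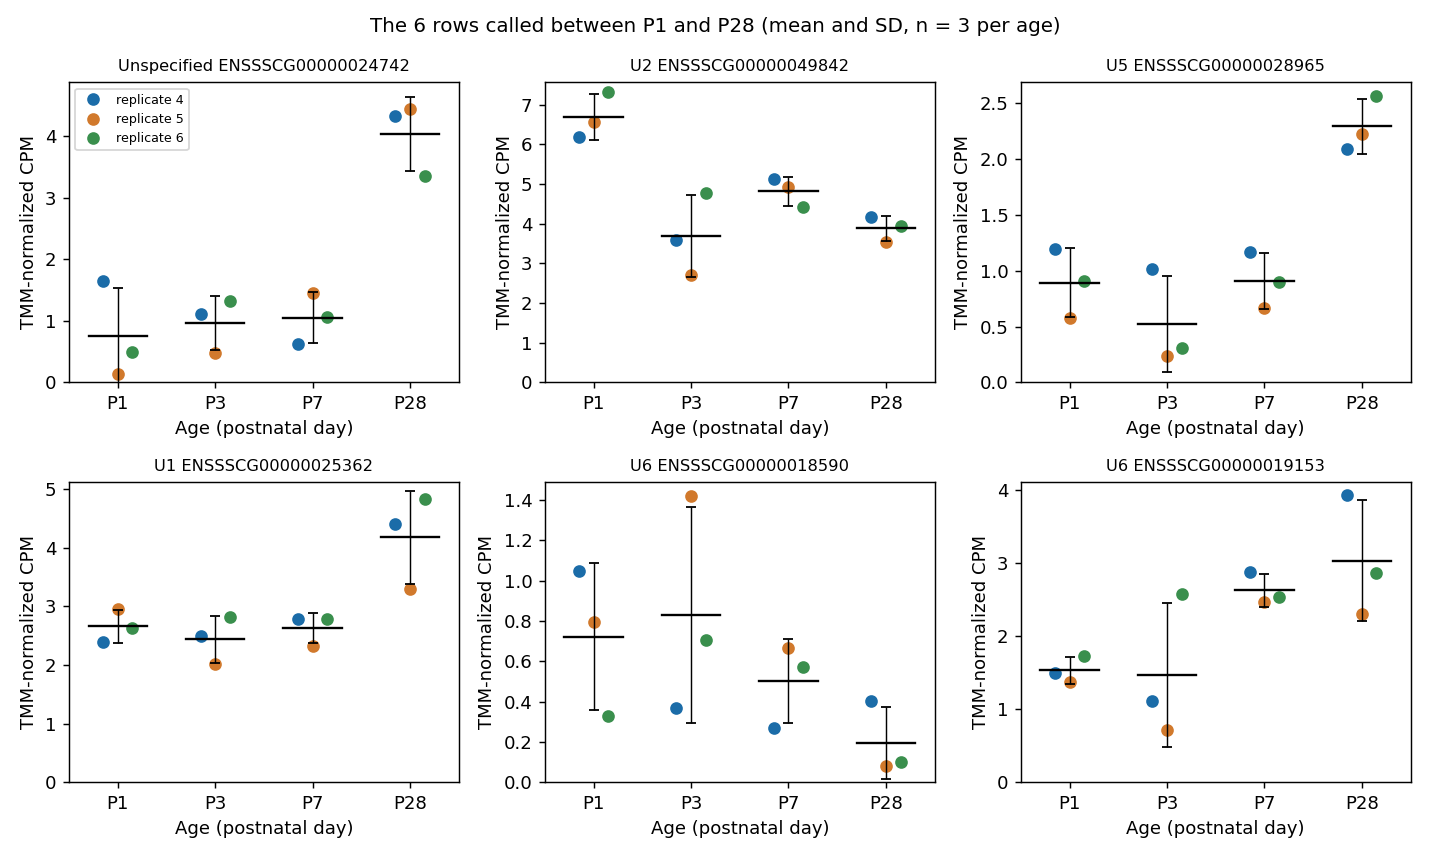
TMM-normalized CPM (y axis, from 0) by age (x axis) of the 6 rows called between P1 and P28. Points are libraries, colored by replicate number, with the mean and SD of 3 pigs as bar and whiskers. ENSSSCG00000024742 and ENSSSCG00000028965 have all P28 points above every other library, and ENSSSCG00000049842 has all P1 points above every later library.

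The U6 row with the highest level, ENSSSCG00000024138 (chr1:90242180-90242277, inside SENP6), was not called. Its counts were 50, 47 and 50 at P1, 64, 23 and 43 at P3, 43, 44 and 23 at P7 and 66, 57 and 49 at P28. The P28 libraries were all above those of P1 in CPM (4.94 ± 0.316 against 3.75 ± 0.367, SD, n = 3 each), with a log2 fold change of 0.40 (SE 0.32, edgeR adjusted p = 0.432). The low SRP rows ENSSSCG00000023209 and ENSSSCG00000027271 had 0 to 18 and 4 to 13 counts, and at P28 their log2 fold changes of -0.15 and 0.42 had SEs of 0.78 and 0.58. Of the 3 SRP rows that did not pass, 2 were at 0 and 1 had 8 counts in all.

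Most of the low rows lie inside longer genes. Of the 31, 27 were inside the span of a protein coding gene, 87.1% against 37.0% of the rows that did not pass, and they lay in 26 such genes. Their counts per base were 3.91% to 137% of those of the surrounding gene (median 32.4%), where the length of the gene is that given in the table. This length is much shorter than the span of the gene. For APP it is 3589 bases, whereas the span is chr13:189434869-189716057. The percentages therefore do not compare a row with the sequence directly around it, and they would be higher per base of span. U6 ENSSSCG00000019512 lies inside both TTC14 and CCDC39, and for it the gene with more counts, TTC14, was used here and below. Against CCDC39 its counts per base were at 2487%. U6 ENSSSCG00000020641 in SLC44A5 was at the upper end, and U6 ENSSSCG00000019793 in APP at the lower. In P1 versus P28, 17 of the 27 rows had a log2 fold change of the same sign as the surrounding gene, against 13 at P3, 14 at P7 and 15 for the later ages together. Across these 27 rows Pearson's r between the log2 fold changes was 0.47, 0.42, 0.23 and 0.18 and Spearman's rho was 0.29, 0.29, 0.21 and 0.09 for P3, P7, P28 and the later ages. The rows are not independent replicates, they share libraries and the P1 samples with the surrounding genes, and 2 of them lie in 1 gene, so these values are descriptive only. The 4 called rows inside a gene had the same sign as that gene at P28. ACAP2 was at 0.30 (edgeR adjusted p = 0.253), PTPRM at 0.47 (adjusted p = 0.0433), KIF1B at -0.21 (adjusted p = 0.304) and SLC30A4 at -0.72 (adjusted p = 0.0205). Whether reads on these rows come from an snRNA or from the surrounding transcript was not tested.

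**Figure D5:**
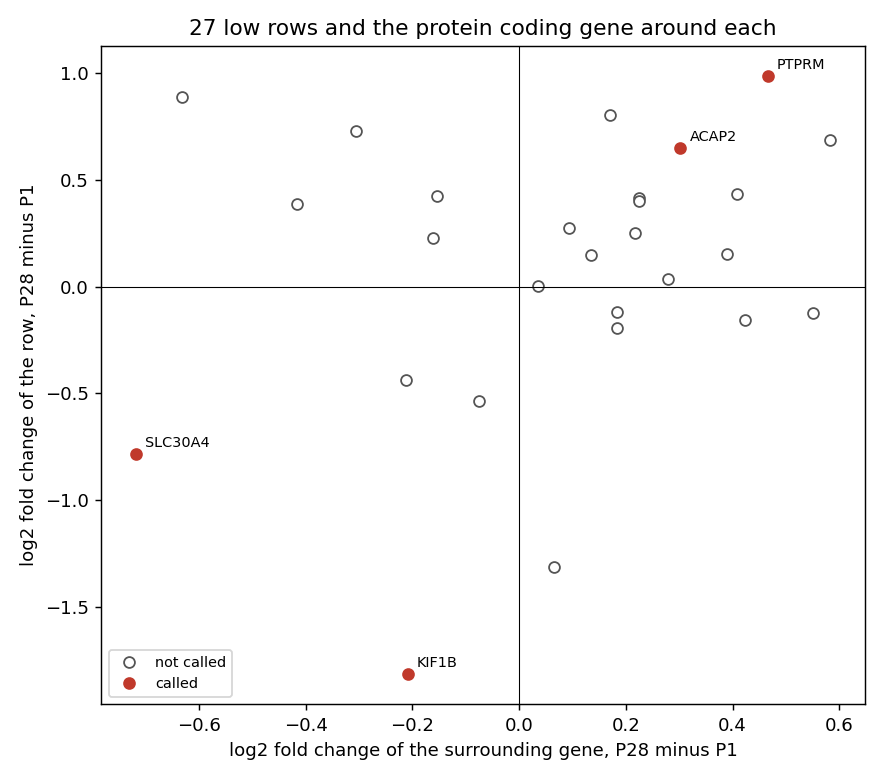
Log2 fold change between P28 and P1 of 27 low rows (y axis) against that of the protein coding gene around each (x axis). Filled red points are called rows, labelled with the surrounding gene. SLC30A4, KIF1B, ACAP2 and PTPRM lie in the quadrants of equal sign, with 17 of the 27 points.

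The abundant SRP rows differed from their surrounding genes in level. KLHDC2, whose span holds ENSSSCG00000031740 and ENSSSCG00000032708, had 1554 to 3459 counts per library, and RPS29, whose span holds ENSSSCG00000034995, had 5404 to 14434. ENSSSCG00000021003 lies in the span of ENSSSCG00000039823, a protein coding gene without a name that averaged 1.25 counts. RPS29, a ribosomal protein gene, was lower at P7 (log2 fold change -0.65, SE 0.17, edgeR adjusted p = 0.0678), as ENSSSCG00000034995 was in value. KLHDC2 had log2 fold changes of -0.23, -0.32 and -0.02 at P3, P7 and P28.

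The protein partners of these RNAs were read from 8 lists, of which the table holds only a part. Of 8 genes for SRP proteins and the SRP receptor, 2 were tested. SRP14, a protein of the SRP domain that pauses translation, was lower at P28, with 288 ± 13.2 CPM at P1 and 199.9 ± 5.28 CPM at P28 (SD, n = 3 each, log2 fold change -0.53, SE 0.17, edgeR adjusted p = 0.0485). SRPRB, the membrane-anchored subunit of the receptor, was at 124 ± 5.46 and 90.8 ± 2.56 CPM (log2 fold change -0.46, SE 0.19, edgeR adjusted p = 0.117) and was not called. For all the lists, the shares of called genes to set beside the counts are 10.6% at P3, 11.7% at P7 and 23.1% at P28, the last made up of 11% higher and 12.1% lower. Among 7 tested genes of the translocon and its partners, 1 was called at P28, SEC61B, a subunit of the channel (log2 fold change -0.78, SE 0.24, edgeR adjusted p = 0.0450), and SSR3 was at -0.34 (adjusted p = 0.123). The median log2 fold changes of the 2 lists at P28 were -0.49 and -0.26, against 0.00 over all genes. edgeR called no gene of either list at P3 or P7, where SRP14 at P7 was the 1 gene past the unadjusted p threshold.

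Calls among the snRNP proteins went in both directions. Of 8 Sm, LSm and U1 snRNP genes tested, 2 were lower at P28. They were LSM10, a subunit of the U7 ring (log2 fold change -0.79, SE 0.18, edgeR adjusted p = 0.0122), and SNRPD1, a subunit of the Sm ring (-0.51, SE 0.22, adjusted p = 0.136). None of 6 U2 snRNP genes was called by edgeR at any age, although 3 at P28 and 2 at P3 passed the unadjusted p threshold with a smaller change. SF3B3 was at -0.38 (edgeR adjusted p = 0.0741) and SF3B2 at 0.29 (adjusted p = 0.131) at P28. Of 9 genes of the U4/U6.U5 particle and the minor spliceosome, SART1, which takes part in recruiting that particle, was called higher at P28 (0.76, SE 0.23, edgeR adjusted p = 0.0439) and at P3 (0.57, adjusted p = 0.284), and TXNL4A was at -0.33 at P28 (adjusted p = 0.231). The median log2 fold changes of the 3 lists at P28 were -0.17, 0.17 and -0.03.

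Genes for the making of snRNAs were read from 3 further lists. Of 7 genes of snRNP assembly and snRNA modification, NCBP1, the large subunit of the nuclear cap-binding complex, was lower at P28 (1106 ± 101 CPM at P1 and 659 ± 28.2 CPM at P28, SD, n = 3 each, log2 fold change -0.75, SE 0.11, edgeR adjusted p = 0.00153). TOE1, an exonuclease that trims snRNA ends, was at 0.49 at P28 (edgeR adjusted p = 0.0554) and was called higher at P3 (0.54, adjusted p = 0.193). GEMIN7 of the SMN complex was called lower at P7 (-0.67, edgeR adjusted p = 0.238). Of 9 genes of snRNA transcription and end processing none was called by edgeR at P28, where 3 passed the unadjusted p threshold with a smaller change. SNAPC5 was at 0.43 (edgeR adjusted p = 0.153) and CDK9 at 0.31 (adjusted p = 0.159), and SNAPC1, a subunit of the factor that binds snRNA promoters, was lower at P3 (-0.59, adjusted p = 0.246). The 2 tested genes of RNA polymerase III and its factors, which transcribe U6 and SRP RNA, were not called by edgeR at any age, with GTF3C6 at -0.32 (adjusted p = 0.285) and GTF3C4 at 0.14 (adjusted p = 0.521) at P28. For these last 3 lists the medians at P28 were -0.21, 0.02 and -0.09.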

How the data were processed

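Total RNA from the hearts of 12 pigs (batch cd) was sequenced after ribosomal RNA removal. The authors deposited read counts per gene, not normalized, with gene lengths. STAR 2.7.9a, MultiQC 1.11 and Sscrofa 10.2 are named in the submitters' processing notes, whereas the gene counter, the strand setting and the handling of reads that match several copies are not given in the sources used here. Column purification of total RNA is known to recover short RNAs incompletely, so counts are not numbers of molecules. Of 4335 protein coding genes matched by symbol to RefSeq, 4330 (99.9%) overlapped their Sscrofa11.1 position, and that build is used for positions. The last line of the table had no counts and was left out. The miRNA and circRNA files were not used. No genome of the build was used here, so no sequences are shown.

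Ages were taken from the labels and replicate numbers from the column names. Counts were tested in R 4.3.3 with edgeR 4.0.16 (quasi-likelihood test, TMM, all 4 ages in one fit) on 5526 genes with at least 10 counts in at least 3 libraries. Calls used the thresholds of the study, given with the results. The SE of a log2 fold change was calculated back, as its absolute value divided by the square root of the F statistic of edgeR's test. DESeq2 1.42.0 was an alternative, and others changed the normalization, filter, ages fitted, call rule, denominator and libraries. Intervals are 95% Wilson intervals, and a floor is 3 counts. Figures used matplotlib 3.10.9 in Python 3.11.15, and the scripts were tested on simulated data. The rows and gene lists were chosen with earlier results of these data known. Named rows are the most abundant of each RNA, every Metazoa_SRP row, rows with an adjusted p under 0.05, 3 rows on each side of the filter, and for each list the 2 genes with the smallest p at P28 (all SRP protein genes). Other rows and genes called in a comparison, the surrounding genes, and rows at the ends of a range were named after their values were seen.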

Additional observations from a re-analysis of the deposited data

How the results depend on the processing

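With all libraries, the thresholds called 1 row at P3, 0 at P7, 6 at P28 and 1 for the later ages together. With no filter on low counts there were 2 at P3 (8.84% of all genes) and 2 for the later ages (8.59%). Total counts without a scaling factor gave 2 at P7 (13.2%) and 2 for the later ages (564 of 5526 genes), and DESeq2's test gave 2 for the later ages (9.48%). With only the compared ages in the fit, 2 rows were called at P3 (7.89%) and 2 at P7 (12.7%). With an adjusted p under 0.05 as the call rule, the counts were 0 at P3 (0.0543%), 2 at P28 (15.3%) and 0 for the later ages (2.46%). Without P1 replicate 4 and P7 replicate 6 together, an alternative chosen after seeing the data, the thresholds called 2, 2, 3 and 2 (454, 563, 1271 and 479 of 5526 genes). Leaving out 1 library at a time gave 1 to 4 rows at P3 (4 without P3 replicate 4, and 2 without P1 replicate 4, P1 replicate 5, P3 replicate 6, P7 replicate 4 or P7 replicate 5), 0 to 4 at P7 (4 without P7 replicate 6, 2 without P28 replicate 4), 4 to 8 at P28 and 1 to 3 for the later ages (3 without P3 replicate 5 or P7 replicate 6), against 6.97% to 14.9%, 9.23% to 12.4%, 19.9% to 24.5% and 8.45% to 10.6% of all genes. In the same fits the P28 minus P1 difference in the share of counts was -6.36 to -3.06 percentage points for the 36 rows (-5.06 with all libraries), -6.40 to -3.07 for the SRP rows and 0.0112 to 0.0326 for the snRNA rows. The U1 call was also lost without P1 replicate 6, P28 replicate 4 or P28 replicate 6 (edgeR adjusted p up to 0.284) and with no filter (adjusted p = 0.222), that of U6 ENSSSCG00000019153 without P1 replicate 5 or P28 replicate 4 (adjusted p up to 0.314), and that of U6 ENSSSCG00000018590 without P1 replicate 5, P28 replicate 5 or P28 replicate 6 (adjusted p up to 0.279). Over the alternatives the edgeR or DESeq2 adjusted p at P28 ranged from 0.00214 to 0.0780 for ENSSSCG00000024742, from 0.0174 to 0.144 for ENSSSCG00000049842 and from 0.0246 to 0.195 for ENSSSCG00000028965. The causes were not tested. None of these differences changed sign under any alternative run, whereas the uncalled values of SRP ENSSSCG00000031740 and ENSSSCG00000032708 at P3 and of ENSSSCG00000021003 at P28 turned without the 2 libraries together, to 0.11, 0.19 and 0.05. The replicate numbers are not known to pair pigs. Of 18 same-numbered pairs, 5 had a correlation of deviations over 0.1, and 8 of 12 libraries correlated best with their own number. Same-numbered pairs ran from -0.186 to 0.331, and the median of the other pairs was -0.0176. Whether equal numbers share a preparation was not tested. With the number as a replicate block, the counts were 1, 0, 6 and 1 as without it (10.5%, 11.6%, 23.1% and 9.43% of all genes). No share could be given for misc_RNA rows with another name than Metazoa_SRP, because there were none. The 31 low rows had at most 91 counts in a library, which limits the precision of their values.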

Other observations

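Other short RNAs of the same table, made in part by the same transcription machinery, were read beside the snRNA and SRP rows. RNase_MRP, the RNA of a ribozyme that processes ribosomal RNA precursors, was at 3653 ± 201 CPM at P1, 2856 ± 553 CPM at P3, 2119 ± 538 CPM at P7 and 4015 ± 1195 CPM at P28 (SD, n = 3 each). It was lower at P7 by the unadjusted thresholds (log2 fold change -0.79, SE 0.23, edgeR adjusted p = 0.0927), and its P28 value was 0.14 (adjusted p = 0.729). The small Cajal body RNAs, which guide the modification of snRNAs, took 0.0703% ± 0.00594 of gene counts at P1 and 0.0961% ± 0.00426 at P28 (SD, n = 3 each), and all P28 libraries, at 0.0914% to 0.0996%, were above those of P1, at 0.0634% to 0.0737%. P3 libraries spanned 0.0446% to 0.0969% and overlapped both. Nearly all of this share lay on 1 row, scaRNA ENSSSCG00000038447 (3842 to 12324 counts per library), which was not called at P28 (log2 fold change 0.44, SE 0.21, edgeR adjusted p = 0.179). The snoRNA rows took 0.158% ± 0.00887 at P1 and 0.191% ± 0.0208 at P28 (SD, n = 3 each), with no overlap between these ages. P3 libraries spanned 0.133% to 0.183%, overlapping the P28 range of 0.173% to 0.214%, and P7 libraries spanned 0.122% to 0.164%. These shares rest on the same 12 libraries, and no p-value is given for the sums.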
